A study of Schizothorax plagiostomus with 18 samples.

Results

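Among 135031 transcript features counted in snow trout gonads, 155 changed sides between stages of the reproductive cycle: their level was higher in testes than in ovaries at one stage and higher in ovaries at another. They were chosen by their own levels in all 18 libraries. Counts were divided by the library's total to give counts per 1000000 counts (CPM), the mean of the 9 testes and the mean of the 9 ovaries had to lie within 16-fold of each other, and the highest of the 6 group means had to reach 10 CPM. The ratio of the testis mean to the ovary mean, with 0.1 CPM added to each, then had to be at least 4 at one stage and at most 0.25 at another. Of the 19390 features that met the conditions on level and balance, 155 (0.799%) also met the condition on the ratio. Because these levels chose the set, its ratios and levels are given below as a description.

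The libraries hold gonad RNA of the snow trout Schizothorax plagiostomus, a river fish of the Himalaya. Testes and ovaries were each sampled before spawning, at spawning and after spawning, with 3 libraries in each of the 6 groups, so the groups are pre-spawning, spawning and post-spawning testis and pre-spawning, spawning and post-spawning ovary. Each library of a group carries a batch label that names a season, numbered 1 to 3, and libraries are named here by that number. It equals the replicate number in every group, and the labels do not say whether it marks a season of collection or only a batch, so season below means this label. The labels give no treatment, strain or age, and do not state whether each library is a separate fish. The p-values thus measure only how these samples scatter, and that scatter may be technical.

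In fish that breed seasonally, the testis passes from dividing spermatogonia through meiosis to sperm before spawning and regresses once the sperm have been shed. The ovary grows yolk-filled oocytes before spawning, ovulates them, and afterwards holds emptied follicles together with young oocytes. The makeup of both organs therefore turns over within a year, and in RNA from whole gonads fewer cells of a type and less RNA per cell cannot be told apart. The files pair no feature with a gene name, so the features are named by their cluster identifiers and no role can be given to any of them. A feature is a single transcript or a cluster of several transcripts of an assembly, and because no lengths were used, levels are compared between libraries and not between features.

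Library totals ran from 14604277 counts in post-spawning ovary 1 to 52676056 in post-spawning testis 3. The gonad labels were checked on features limited to one gonad, picked on the pre-spawning and spawning libraries: 154 were limited to ovaries and 18 to testes, and none of them belongs to the set. In the post-spawning libraries, which that pick did not use, 0 of the 154 ovary-limited features reached 1 CPM in any testis and 0 of the 18 testis-limited features did in any ovary. Post-spawning ovary 1 stood apart from the other post-spawning ovaries. In it 126 of the 154 ovary-limited features reached 1 CPM, against 142 and 144 in post-spawning ovaries 2 and 3. Their sum was 1170 CPM against 3022 and 3018 CPM. In the earlier ovaries, which the pick used, the sum ran from 1649 CPM in spawning ovary 1 to 3888 CPM in pre-spawning ovary 2. The testis-limited features summed to 1.44 CPM in post-spawning ovary 1, against 0.517 and 0.708 CPM in post-spawning ovaries 2 and 3. In the post-spawning testes they summed to 202 to 233 CPM. The pick itself kept these features low in the earlier ovaries and present in the earlier testes, so those libraries give no comparison.

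The same library stood apart over the reversing features. Across the 155 features, the log2 levels of post-spawning ovary 1 had Pearson correlations of only 0.227 and 0.185 with those of post-spawning ovaries 2 and 3, which correlated with each other at 0.944. The 3 post-spawning testes correlated at 0.923 to 0.966, and all other pairs within a group at 0.306 to 0.641. The submitters' second library codes begin alike for post-spawning ovaries 2 and 3 and for the post-spawning testes, and whether libraries of a group share a fish cannot be told from the labels. The set took 1.10% of all counts in post-spawning ovary 1 and 0.089% and 0.087% in the other post-spawning ovaries. The set's share was uneven in other groups too: spawning testis 3 had 0.65% against 0.126% and 0.158% in its group, and pre-spawning testis 2 had the largest share of all, 1.44%, against 0.37% and 0.782% in pre-spawning testes 1 and 3. The counts by course below are given with and without these libraries.

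With all 18 libraries, most of the reversals ran from testis to ovary as the cycle went on, but the leading course rested on post-spawning ovary 1. In 86 of the 155 features (55.5%) the ratio was highest before spawning and lowest after it, and in a further 30 it was highest at spawning and lowest after it. From pre-spawning testis bias to spawning ovary bias there were 19 features. The opposite course was rare: 11 features were testis-biased at spawning and ovary-biased before it, 5 were testis-biased after spawning and ovary-biased at spawning, and 4 were testis-biased after spawning and ovary-biased before it. Without post-spawning ovary 1, which leaves 2 libraries in that group, the rule chose 27 features for the course from pre-spawning testis to post-spawning ovary, and 22 of them were among the 86. The largest course was then from post-spawning testis to spawning ovary bias, with 34 features in place of 5. Without spawning testis 3 the course from spawning testis to post-spawning ovary had 16 features in place of 30, that from pre-spawning testis to spawning ovary 35 in place of 19, and that from spawning testis to pre-spawning ovary 6 in place of 11. Without pre-spawning testis 2 the last of these had 27. The first course had 84 features without pre-spawning testis 2, of which 63 were among the 86, and 72 without pre-spawning testis 3. These counts by course were added after seeing the data.

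The pre-spawning testis held the highest group mean in 71 features, the post-spawning ovary in 39, the spawning testis in 22, the spawning ovary in 13, the pre-spawning ovary in 6 and the post-spawning testis in 4.

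**Figure D1:**
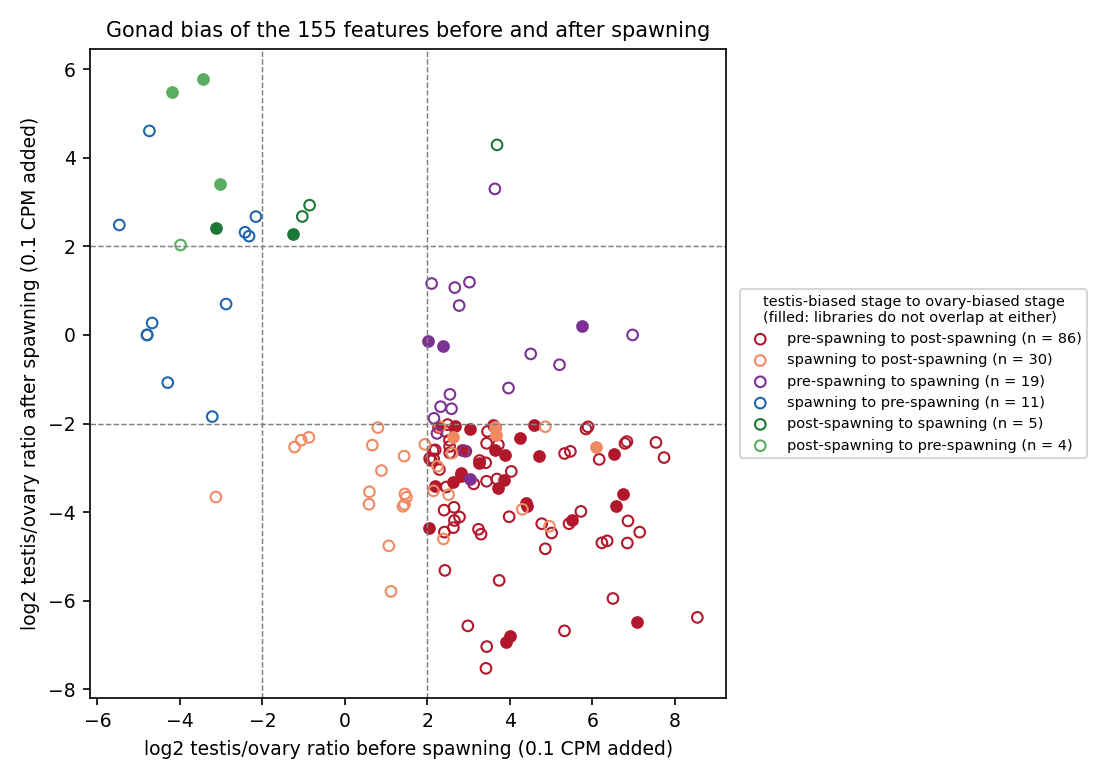
The log2 ratio of the testis mean to the ovary mean (0.1 CPM added to each, 3 libraries per mean) after spawning is plotted against that before spawning for each of the 155 features, coloured by the stages of highest and lowest ratio, with dashed lines at 4-fold and filled points where libraries do not overlap at either stage. The 86 features that went from pre-spawning testis bias to post-spawning ovary bias fill the lower right corner with all 18 libraries used, and the upper left corner holds few.

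The highest group mean of a feature ranged from 10.2 to 1596 CPM with a median of 21.8 CPM, and it reached 100 CPM in 25 features. Both ratios reached 8-fold in 55 features and 16-fold in 21. Between its testis-biased and its ovary-biased stage, the level moved by at least 4-fold in both gonads in 65 features, in the testis alone in 53 and in the ovary alone in 37. The median change was -4.29 on the log2 scale in testes and 3.30 in ovaries, and the testis change was the larger in 95 features. Without post-spawning ovary 1 the median ovary change was 0.78, and both gonads moved by 4-fold in 29 features. At the edge of the rule, cluster36662 was the nearest feature inside, with log2 ratios of 2.00 before spawning and -2.06 at spawning. The nearest outside was cluster21758, with 2.61 before spawning and a lowest ratio of -1.998 after it.

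A difference of group means can rest on 1 library, so the libraries themselves were compared. In 40 of the 155 features every testis lay above every ovary at the testis-biased stage and every ovary above every testis at the ovary-biased stage, and these are called separated below. Such a double separation was met by 415 of the 19390 eligible features (2.14%), and the rule favours it by using the same libraries. Of the separated features, 27 went from pre-spawning testis to post-spawning ovary, 4 each from spawning testis to post-spawning ovary and from pre-spawning testis to spawning ovary, 3 from post-spawning testis to pre-spawning ovary, 2 from post-spawning testis to spawning ovary, and 0 from spawning testis to pre-spawning ovary. In the other 115 features the libraries of the gonads overlapped at one or both of the stages.

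**Figure D2:**
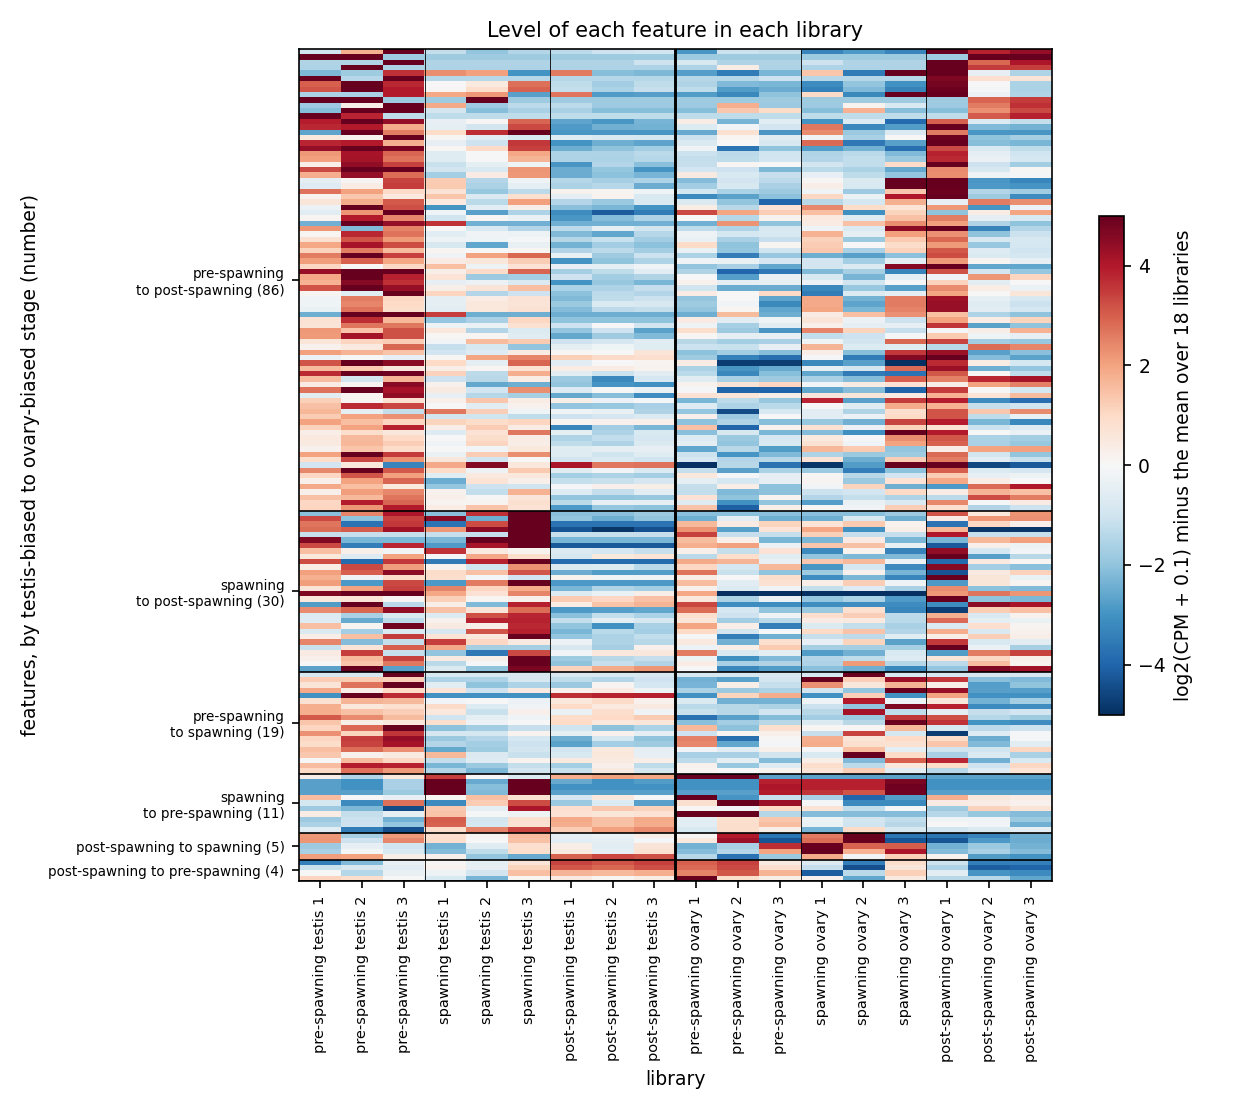
Each row is 1 of the 155 features and each column 1 of the 18 libraries, and colour gives log2(CPM + 0.1) minus the row's mean over the libraries. The pre-spawning testes and post-spawning ovary 1 carry most of the red in the upper block of 86 features, while post-spawning ovaries 2 and 3 are mostly near or below the row means.

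The 86 features that moved from the pre-spawning testis to the post-spawning ovary had median group levels of 18.5, 4.01 and 1.19 CPM in testes before, at and after spawning, and of 1.48, 3.74 and 12.2 CPM in ovaries. The testis level fell in 84 of them and the ovary level rose in 82, by at least 4-fold in 71 and 62 respectively and in both gonads in 47. The ovary side of this rested on 1 library: the median levels of post-spawning ovaries 1, 2 and 3 were 18.7, 2.01 and 2.24 CPM, and ovary 1 gave a median of 88.4% of their sum. Without ovary 1 the median ovary level after spawning was 2.13 CPM, the ovary level rose in 53 features and by 4-fold in 18, and the median ovary change was 0.35 on the log2 scale in place of 3.42. Ovaries 2 and 3 kept the ovary side in 61 of the 86 features and reached 4-fold in 26. At spawning the ratios of the 86 features lay between the ends by the definition of the course. Of these features 59 were within 4-fold of parity, 38 on the testis side and 44 on the ovary side, with a median log2 ratio of -0.06.

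The feature with the highest group mean of all was cluster4139, a cluster of 8 transcripts. Its level was 878, 2813 and 1096 CPM in the pre-spawning testes, 43.6, 79.3 and 435 CPM in the spawning testes and 7.58, 10.2 and 12.5 CPM in the post-spawning testes. In ovaries it was 36.8, 3.22 and 10.05 CPM before spawning, 5.91, 7.84 and 2.89 CPM at spawning and 404, 24.3 and 16.9 CPM after it. The testes thus lay above every ovary before and at spawning and below every ovary after it. The pre-spawning testis mean of 1596 ± 1059 CPM (SD, n = 3) stood against 16.7 ± 17.8 CPM in ovaries, and the post-spawning testis mean of 10.1 ± 2.46 CPM against 148 ± 221 CPM. Post-spawning ovary 1 carried most of that last mean, while ovaries 2 and 3 were above the highest post-spawning testis by less than 2-fold. Without it the log2 ratio after spawning was -1.02 in place of -3.86.

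The 2 transcripts of one stem made up cluster19015, and 1 transcript with the same stem in its identifier made up cluster52164, so reads may be split between them. In cluster19015 the pre-spawning testes held 458, 2013 and 729 CPM against 49.2, 45.8 and 57.2 CPM in ovaries. After spawning the testes held 38.1, 37.2 and 41.9 CPM and the ovaries 1478, 87.7 and 60.4 CPM. Every library kept its side at both stages, and the ovary mean of 542 ± 811 CPM rested mostly on ovary 1. Levels of cluster52164 were close to a fixed fraction of these in every library (Pearson correlation of log2 levels 0.998 over 18 libraries), with 244, 964 and 413 CPM in pre-spawning testes and 785, 39.4 and 27.1 CPM in post-spawning ovaries. Without ovary 1 the log2 ratios after spawning were -0.92 in cluster19015 and -0.76 in cluster52164, in place of -3.79 and -3.85.

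In cluster8303, a cluster of 5 transcripts, the change was smaller. The pre-spawning testes held 60.3, 447 and 224 CPM against 19.1, 3.49 and 7.35 CPM in the ovaries, and the post-spawning testes held 11.6, 22.2 and 20.9 CPM against 157, 28.2 and 39.1 CPM. Without overlap at either end, the log2 ratio moved from 4.596 to -2.03, and to -0.88 without post-spawning ovary 1. The single transcript of cluster34536 held 51.6, 208 and 71.6 CPM in pre-spawning testes and 0.447, 0.345 and 0.570 CPM in post-spawning testes, while its post-spawning ovaries held 26.3, 2.00 and 1.38 CPM. It shares a stem with cluster4139 and followed it at a correlation of 0.969.

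The largest reversal belonged to cluster33129, a single transcript with log2 ratios of 7.10 before and -6.49 after spawning. Its pre-spawning testes held 0.389, 3.26 and 138 CPM, and its pre-spawning ovaries 0.0326, 0.373 and 0.329 CPM. After spawning the testes held 0.298, 0.376 and 0.399 CPM and the ovaries 88.2, 14.2 and 20.6 CPM. All 3 post-spawning ovaries were therefore far above the testes, with a log2 ratio of -5.25 without ovary 1, but before spawning testis 3 gave 97.4% of the testis sum, and testis 1 was barely above the highest ovary.

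A pair of single transcripts with a shared stem, cluster34109 and cluster73341, correlated at 0.999. In cluster34109 the pre-spawning testes held 72.9, 84.4 and 19.0 CPM against 3.26, 4.81 and 2.64 CPM in ovaries. The post-spawning testes held 0.660, 0.909 and 0.930 CPM, and the post-spawning ovaries 310.3, 1.06 and 0.933 CPM. After spawning, ovaries 2 and 3 were thus only just above the highest testis, and ovary 1 gave 99.4% of the ovary sum. In cluster73341 the same library held 361 CPM against 1.36 and 1.19 CPM in post-spawning ovaries 2 and 3.

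With 16 transcripts, cluster1045 was among the largest clusters of the set and its libraries overlapped. Before spawning its testes held 37.2, 31.2 and 18.4 CPM and its ovaries 4.08, 1.56 and 2.11 CPM, without overlap. After spawning the testes held 16.2, 16.2 and 14.1 CPM and the ovaries 249.6, 2.18 and 3.22 CPM, so that ovary 1 was above every testis and ovaries 2 and 3 were below every testis. Without post-spawning ovary 1, edgeR's fitted log2 fold change after spawning turned to 2.58, the testis side.

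**Figure D3:**
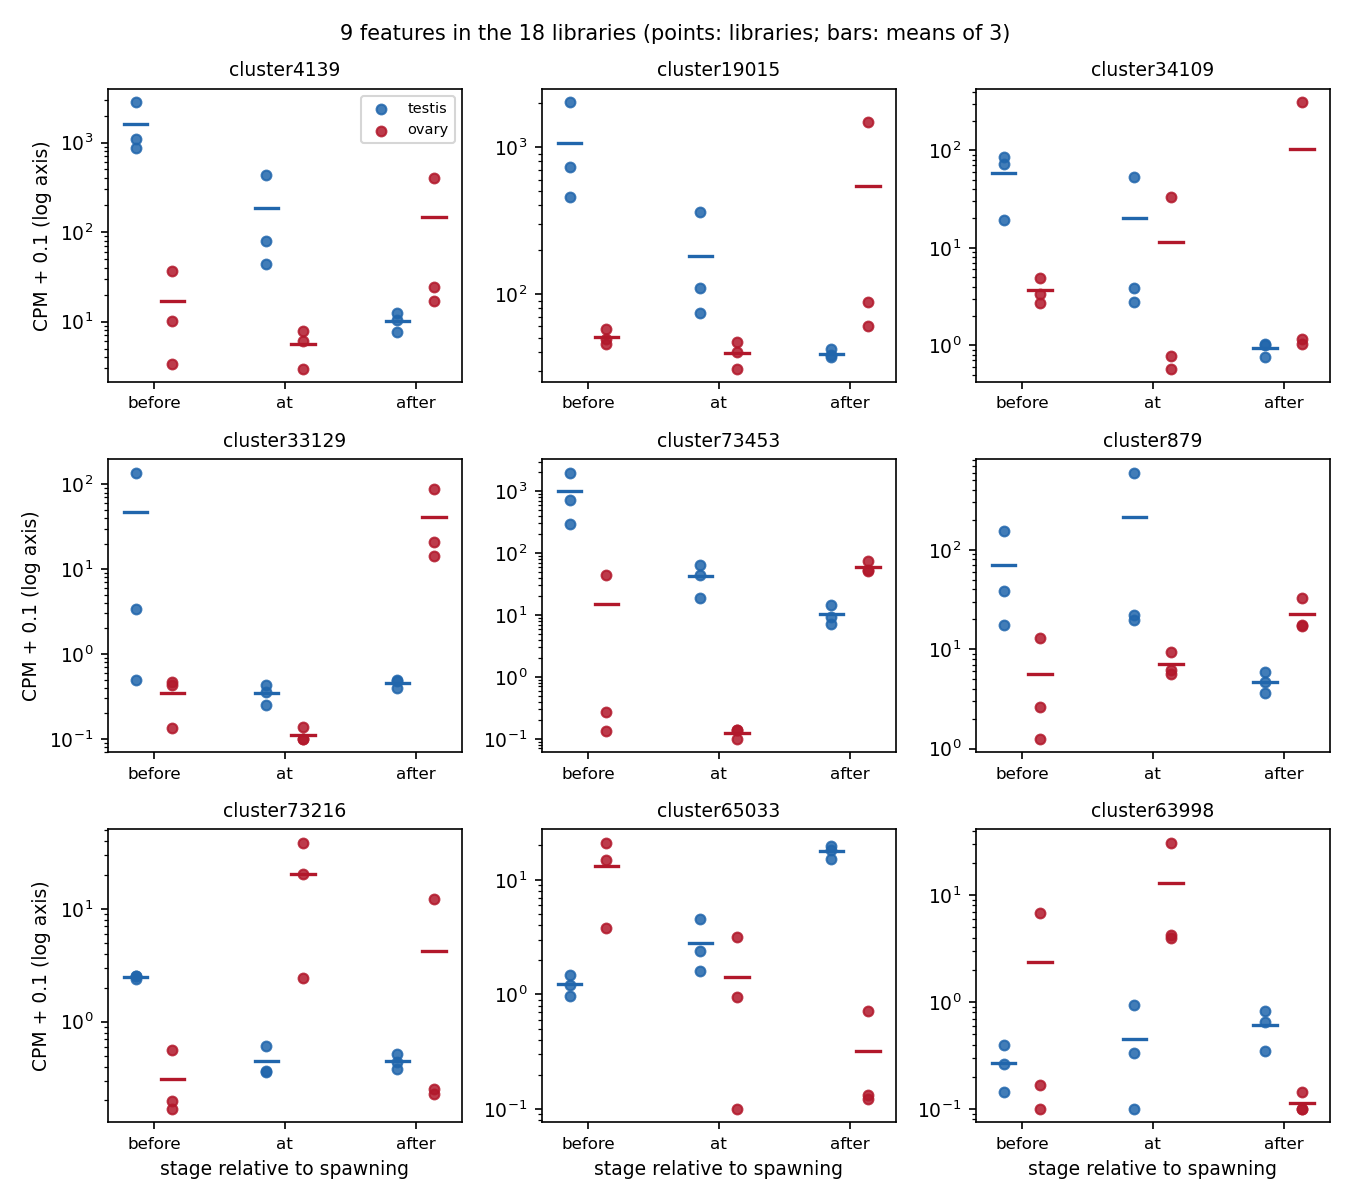
Levels (CPM + 0.1, log axis) are shown for 9 of the named features, with 1 point per library, bars at the means of 3 libraries, testes and ovaries side by side at each stage. In cluster4139 and cluster19015 all 3 post-spawning ovaries lie above all post-spawning testes, while in cluster34109 ovary 1 stands at 310.3 CPM and ovaries 2 and 3 are level with the testes.

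Over all 116 features that were ovary-biased after spawning, the post-spawning ovaries were unequal. Ovary 1 was the highest of the 3 in 84 features, ovary 2 in 16 and ovary 3 in 16, with median levels of 16.9, 2.11 and 2.24 CPM. Ovary 1 gave a median of 85.4% of the summed level, and over 80% of it in 62 features. Ovary 1 lay above all 3 post-spawning testes in 98 features, ovary 2 in 78 and ovary 3 in 75. The mean of ovaries 2 and 3 alone exceeded the testis mean in 84 of the 116 features, and by at least 4-fold in 43. The lower ovary-limited and higher testis-limited sums of ovary 1 given above move with these levels, and their part in the result was not tested.

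The 105 features that were testis-biased before spawning also differed between libraries of that group. Testis 2 was highest in 56, testis 3 in 32 and testis 1 in 17, with median levels of 5.76, 17.1 and 17.8 CPM in testes 1, 2 and 3. The post-spawning testes were alike: the set took 0.051%, 0.050% and 0.052% of their counts.

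Among the 30 features that went from spawning testis to post-spawning ovary bias, 26 were on the testis side before spawning as well, and 13 of those by at least 4-fold. The largest separated reversal was in cluster73453, a single transcript. Its spawning testes held 43.7, 18.7 and 62.8 CPM against 0.0405, 0.0366 and 0 CPM in spawning ovaries, and its post-spawning ovaries held 51.3, 73.9 and 53.5 CPM against 7.02, 9.16 and 14.5 CPM in testes. Ovary 1 did not stand out in this feature, and the libraries of the gonads did not overlap at these stages. Its highest levels were nonetheless those of the pre-spawning testes, at 289, 1991 and 721 CPM, when the ovaries held 43.7, 0.170 and 0.0329 CPM.

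The largest cluster of the set was cluster879, with 18 transcripts. Its spawning testes held 22.1, 19.7 and 600.5 CPM and its spawning ovaries 6.07, 5.57 and 9.27 CPM. After spawning the testes held 3.49, 4.55 and 5.75 CPM and the ovaries 17.0, 32.7 and 17.4 CPM. The sides were thus kept by every library, although spawning testis 3 gave 93.5% of its group's sum. Without that library the log2 ratio at spawning was 1.57 in place of 4.92. Its stem partner cluster30095 followed it at a correlation of 0.996, with 6.20, 5.55 and 182 CPM in spawning testes and 6.92, 9.22 and 5.37 CPM in post-spawning ovaries, and its log2 ratio at spawning was 1.47 without spawning testis 3. Low values carried cluster5686, whose post-spawning testes held 0.170, 0.0314 and 0.247 CPM and whose post-spawning ovaries held 0.548, 1.81 and 1.06 CPM.

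Over the 41 features that were testis-biased at spawning, spawning testis 3 was the highest in 28, with a median of 29.0 CPM against 4.54 and 4.34 CPM in testes 1 and 2. Without that library 38 of the 41 stayed on the testis side at spawning and 23 of them by at least 4-fold. Their median testis level at spawning was then 6.10 CPM in place of 14.4 CPM. Of the 30 that were ovary-biased after spawning, 20 still met the rule, 13 with the same course. The rule found 155 features in all without it, of which 136 were among those described here and 127 had the same course.

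Of the 19 features that were testis-biased before spawning and ovary-biased at spawning, cluster73216 had the largest separated reversal. Its pre-spawning testes held 2.47, 2.47 and 2.31 CPM against 0.0979, 0.0678 and 0.461 CPM in ovaries, and its spawning ovaries held 38.7, 2.34 and 20.2 CPM against 0.266, 0.259 and 0.511 CPM in testes. The testes fell together to a low level and the spawning ovaries differed widely among themselves. In cluster12521 the pre-spawning testes held 0.938, 4.31 and 61.01 CPM and the spawning ovaries 3.16, 0.879 and 2.07 CPM, so pre-spawning testis 3 made most of the testis level. More even levels were found in cluster76008, with 8.28, 20.03 and 14.1 CPM in pre-spawning testes, 2.55, 1.93 and 3.36 CPM in pre-spawning ovaries, 0.398, 0.756 and 1.45 CPM in spawning testes and 2.67, 8.17 and 2.01 CPM in spawning ovaries. Its ovary means, 2.61 ± 0.716 and 4.28 ± 3.38 CPM (SD, n = 3), differed by less than the spread between ovaries, and the testes passed from above to below them. The ovaries also differed by less than their spread in cluster36662, whose testes went from 4.73, 15.8 and 10.3 CPM to 0.774, 0.410 and 1.17 CPM while its ovaries went from 2.55, 2.34 and 2.57 CPM to 3.64, 5.57 and 1.59 CPM.

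With all 18 libraries, reversals towards the post-spawning testis were few and involved low levels. Without post-spawning ovary 1 the rule chose 34 with ovary bias at spawning and 9 with ovary bias before it. In cluster65033 the pre-spawning ovaries held 14.8, 21.0 and 3.69 CPM against 0.869, 1.12 and 1.38 CPM in testes, and the post-spawning testes held 18.3, 15.2 and 19.7 CPM against 0.616, 0.0215 and 0.0322 CPM in ovaries. In cluster64304 the corresponding levels were 8.39, 11.3 and 1.35 CPM against 0, 0.132 and 0.729 CPM before spawning, and 10.98, 9.28 and 11.1 CPM against 0.411, 0 and 0 CPM after it. The post-spawning testes of both features were close together, the libraries of the gonads did not overlap at either stage, and all 6 spawning libraries were low. In the remaining separated feature of this course, cluster44300, the level went from 9.69, 15.2 and 5.70 CPM in pre-spawning ovaries to 5.62, 5.30 and 6.07 CPM in post-spawning testes.

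For spawning ovaries followed by post-spawning testes, the separated features were cluster63998 and cluster50672, single transcripts with a shared stem and a correlation of 0.968. In cluster63998 the spawning ovaries held 30.8, 3.88 and 4.16 CPM against 0, 0.238 and 0.830 CPM in testes. The post-spawning testes held only 0.553, 0.251 and 0.721 CPM against 0, 0.0431 and 0 CPM in ovaries, so the later testis bias was one between low levels. In cluster50672 spawning ovary 1 held 27.6 CPM and the other spawning ovaries 1.39 and 7.41 CPM.

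No separated feature went from spawning testis to pre-spawning ovary, and the following were picked after their values were seen. A trio of single transcripts with a shared stem, cluster37273, cluster66058 and cluster31080, correlated pairwise at 0.997 to 0.999 and were close to all or none between libraries. In cluster66058 the spawning testes held 112, 0.0432 and 778 CPM, the spawning ovaries 11.99, 11.8 and 20.9 CPM and the pre-spawning ovaries 0, 0 and 12.1 CPM, and no other library exceeded 0.162 CPM. Both of its biases therefore rested on libraries with the transcript next to libraries of the same group nearly without it. In cluster16386 the pre-spawning ovaries held 25.1, 24.1 and 0.0659 CPM, all testes stayed between 0.0987 and 1.11 CPM, and the later ovaries were at most 0.0685 CPM.

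Such on-and-off levels within a group were frequent in the set. In 42 of the 155 features (27.1%) a library had at most 3 counts, the limit taken for a count of 0 and covering counting error only, while another library of the same group held at least 10 CPM. Among all 19390 eligible features this held for 185 (0.954%), and the rule itself favours such features. They were spread over 5 of the 6 groups, with 19 features in pre-spawning testes, 10 in spawning testes, 9 in pre-spawning ovaries, 6 in spawning ovaries, 9 in post-spawning ovaries and 0 in post-spawning testes. All 3 libraries of at least 1 group held 0 counts in 25 features, most often the post-spawning testes, with 17. Ratios against such a group depend on the added 0.1 CPM.

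In 66 features a single library gave over 80% of the summed level of the highest group. It was post-spawning ovary 1 in 29, pre-spawning testis 3 in 12, spawning testis 3 in 10, spawning ovary 2 in 5, spawning ovary 3 in 4, pre-spawning testis 2 in 3, pre-spawning ovary 1 in 2 and pre-spawning testis 1 in 1. The extreme cases were single transcripts. In cluster71188 the pre-spawning testes held 0, 0 and 32.8 CPM, and the post-spawning ovaries 13.97, 2.00 and 4.63 CPM against 0, 0 and 0.0380 CPM in testes. Its ovary bias was shared by all 3 ovaries, but its testis bias was that of testis 3, without which edgeR's log2 fold change before spawning was -2.87. In cluster74879 pre-spawning testis 3 held 37.5 CPM, spawning ovary 2 held 5.28 CPM and the other 16 libraries held 0 counts. In cluster70282 spawning testis 3 held 45.9 CPM and every other testis 0, and without it edgeR's log2 fold change at spawning was -5.13.

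Some of the features rose and fell together. Grouped by average linkage at a Pearson correlation of 0.8 over the log2 levels of the 18 libraries, the 155 features gave 71 groups. Of these, 6 groups had at least 5 members and held 55 features, and 41 features stood alone. Because libraries share depth and the rule selected the pattern, these correlations describe the set and carry no test. The largest group had 15 features with a mean correlation of 0.918 and included cluster4139, cluster19015, cluster52164, cluster8303 and cluster73453. Its median levels were 47.6, 446.5 and 122 CPM in pre-spawning testes, 51.3 CPM in post-spawning ovary 1 and 3.68 to 5.62 CPM in post-spawning testes, so pre-spawning testis 2 led this group. All 8 features of another group, with cluster8125, cluster34536, cluster67835, cluster2122, cluster29033 and cluster44683 among them, were separated.

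A different course was followed by the second largest group, of 11 features with cluster1045. It was highest in spawning ovary 3 and post-spawning ovary 1, at medians of 41.2 and 40.2 CPM, and 0 of its features were separated. A group of 6 features with cluster10379 had medians of 52.7 and 147.6 CPM in the same ovaries. The features whose levels most resembled cluster4139 were not all members: of the 196 eligible features that correlated with it at 0.8 or more, 20 belonged to the set, and the closest was cluster18969 at 0.972, a member.

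Some of the features had relatives in the assembly. Transcripts of 85 members shared an identifier stem with a transcript of another feature. The share over all eligible features was not counted, so this is no trait of the set. A stem was shared by 90 pairs of members, involving 54 features, and 66 of these pairs came from a single stem of 12 members. Single transcripts made up 81 members (52.3%), against 46.7% of eligible features. Reads of one gene, of gene copies or of alleles may be divided between such features. Counts were therefore also summed over all features of a member's stems, counting each sum once, since members of a stem share it. Of 60 distinct sums, 51 kept the direction of both biases and 40 kept them at 4-fold or more, while 7 were on the testis side and 2 on the ovary side at both stages. These sums include the members, which were chosen for that direction. No stem sum was taken without post-spawning ovary 1, on which much of the ovary side of the set rested. Summed over the partners outside the set, 40 sums had a highest group mean of at least 1 CPM: 24 had the direction of the member at both stages, 7 of them at 4-fold, 13 were on the testis side and 3 on the ovary side at both. The share of such sums over other features was not counted. Over 775 pairs of 55 members with 131 distinct single features outside the set, the median correlation was 0.103. In 187 pairs (24.1%) the outside feature had the member's direction at both stages, and in 101 the opposite direction. It was on the testis side at both in 243 and on the ovary side in 52. Over all features of at least 1 CPM and the same stage pairs, 17.6% had the member's direction. Most of the 775 pairs came from the largest stem, described next, so their values mainly describe that stem.

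The largest stem held 92 transcripts in 75 features, and 12 of these features were members, 10 of them going from pre-spawning testis to post-spawning ovary and 1, cluster33129, being separated. Summed over the 75 features, the pre-spawning testes held 330.1, 1517 and 1541 CPM, the spawning testes 433, 419 and 1918 CPM and the post-spawning testes 77.6, 135 and 85.6 CPM. The ovaries held 98.0, 58.2 and 47.5 CPM before spawning, 108, 59.9 and 137 CPM at spawning and 266, 54.1 and 88.6 CPM after it. The sum thus fell in testes after spawning to the range of the ovaries and the libraries overlapped there. The 12 members alone summed to 107, 35.9 and 50.9 CPM in post-spawning ovaries and to 0.376 to 0.418 CPM in post-spawning testes, where 11 of the 12 had at most 3 counts in every library. They did not move as one: their 66 pairs correlated at -0.209 to 0.979 with a median of 0.305, and 4 pairs reached 0.8.

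EdgeR's quasi-likelihood test, adjusted by the Benjamini-Hochberg method over all features tested, used the same contrasts as the rule, and its counts are given as a description. Testis against ovary, 64 of the 154 members tested passed before spawning, 53 higher in testes and 11 higher in ovaries, where 41.9% of all features passed, 22.1% higher in testes and 19.8% in ovaries. At spawning 45 passed, 38 higher in testes and 7 in ovaries, with 45.4% of all features, 23.1% and 22.3% by direction. After spawning 77 passed, 9 higher in testes and 68 in ovaries, with 41.5% of all features, 19.4% and 22.1% by direction. The directions follow from the choice of the features. Calls in opposite directions at different stages were made for 47 members, 24 of them separated, and for 220 features in all (0.411%). With the season as a block, the post-spawning count was 44 and the count of opposite calls 30. Of all 53536 features, 21332 then passed after spawning and 135 (0.252%) were called in opposite directions.

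Leaving out some libraries moved these counts by over 1.5 times. Before spawning the count was 40 without pre-spawning ovary 3 and 42 without pre-spawning ovary 2. At spawning it was 25 without spawning testis 3. After spawning it was 51 without post-spawning ovary 1 and 26 without any 1 of the post-spawning testes, and opposite calls were then 24, 24 and 26. Over all features the calls were 16304 and 16435 before spawning and 20168 at spawning, in the same order. After spawning they were 25544, then 16341, 17753 and 16258, with 94, 107 and 94 opposite calls. With all libraries they were 22432, 24298 and 22207 by stage.

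The test that the stage changes differed between the gonads was passed by 10 members, where 0.133% of all features passed. These were cluster76018, cluster67835, cluster2122, cluster44683, cluster29033, cluster33129, cluster32662, cluster4139 and cluster64943, all from pre-spawning testis to post-spawning ovary, and cluster16386. With the season block 0 members passed, with a smallest adjusted p of 0.0621 in edgeR and 119 members at an unadjusted p under 0.05. The share of all features at that unadjusted p was not counted, and the rule chose the members for this same difference. The counts of members in this test are therefore only a description. Of all 53536 features 10 passed with the block. The DESeq2 count was 82 of 126 members tested, with 2598 of 50866 features in all. The count also turned on single libraries: it was 20 without post-spawning ovary 1, 25 without pre-spawning testis 1, 24 without spawning testis 1, 12 without post-spawning ovary 3 and 0 to 6 without any other library. The count over all features moved as well, from 71 with all libraries to 186, 249, 196 and 44 in the same order. Without any other library it was 8 to 62.

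The rule chose the members on the same testis means, so the counts within testes and their directions are only a description. Within testes, 60 members passed edgeR's test after against before spawning, 53 lower and 7 higher, with 6.15% of all features, 2.97% lower and 3.18% higher. At spawning against before it, 28 passed, 19 lower and 9 higher, with 4.04% of all features, 2.21% lower and 1.83% higher. After spawning against spawning 1 passed, with 0.0352% of all features, 0.0176% in each direction. With the season block these counts were 49, 0 and 1, with 1309, 0 and 3 of all 51080 features. For the comparison with 0 the smallest adjusted p in edgeR was 0.0615. In it 73 members had an unadjusted p under 0.05, a description only, as this was not counted over all features. Without the block DESeq2 made 58 calls among 133 members tested there, and 9744 among 50250 features in all. The counts of 60 and 28 moved with single libraries, and so did the calls over all features. The first was 0, 1 and 0 without post-spawning testis 1, 2 or 3, 0 and 17 when testis 2 or 3 of the pre-spawning group was left out. The second was 0 without any 1 post-spawning testis, 0 when either of those pre-spawning testes was left out, 2 and 8 without spawning testis 2 or 3, and 61 when the first pre-spawning testis was left out. Over all features the first went from 3143 to 10, 14, 8, 2 and 148 in the order given. The second went from 2065 to 0 wherever the members' count was 0. Without spawning testis 2 or 3 it was 34 and 462, and without pre-spawning testis 1 it was 7909.

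Within ovaries, edgeR called 0 members in each of the comparisons of stages, as it did for all features (0%). At an unadjusted p under 0.05 there were 33 members for spawning against pre-spawning, 52 for post-spawning against spawning and 72 for post-spawning against pre-spawning. The share of all features at that unadjusted p was not counted, and the rule chose the members on these same means. The unadjusted counts are therefore only a description. DESeq2 called 2, 24 and 19 of 103 members tested, with 89 and 440 of 41782 and 434 of 40134 features in all. The spread between ovary libraries was large, with a biological coefficient of variation of 64.3% against 57.1% in testes.

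The libraries that the choice had not used gave the measure of how far reversals chosen by the same rule recurred. The rule was applied to the 12 libraries of 2 seasons, and the ratio was read in the 6 libraries of the season left out. Without season 1 it chose 272 features, of which 49 (18.01%) had the same signs at both stages in season 1, and 47 had both signs the other way. Without season 2 it chose 241, of which 88 (36.5%) had the same signs and 15 the other way. Without season 3 it chose 181, with 69 (38.1%) the same way and 21 the other way. Over all eligible features and the same stage pairs, the signs matched in 16.7%, 9.34% and 13.8%. Eligible features with a lasting bias to one gonad were not taken out, and these can hardly match at both stages. Pooled over the 3 choices, 206 of 694 (29.7%, SD over the 3 seasons 11.2) matched against 13.4% of eligible features. The choices share libraries and a feature can be in more than 1 of them, so the 694 are not all distinct features. With 3 seasons of 1 library per group no p is given. For season 1, which holds post-spawning ovary 1, the share was close to that of all eligible features, and below it with 1 CPM added (12.2% against 18.5%) or a minimum of 20 CPM (10.5% against 16.2%). For the other seasons it was above.

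**Figure D4:**
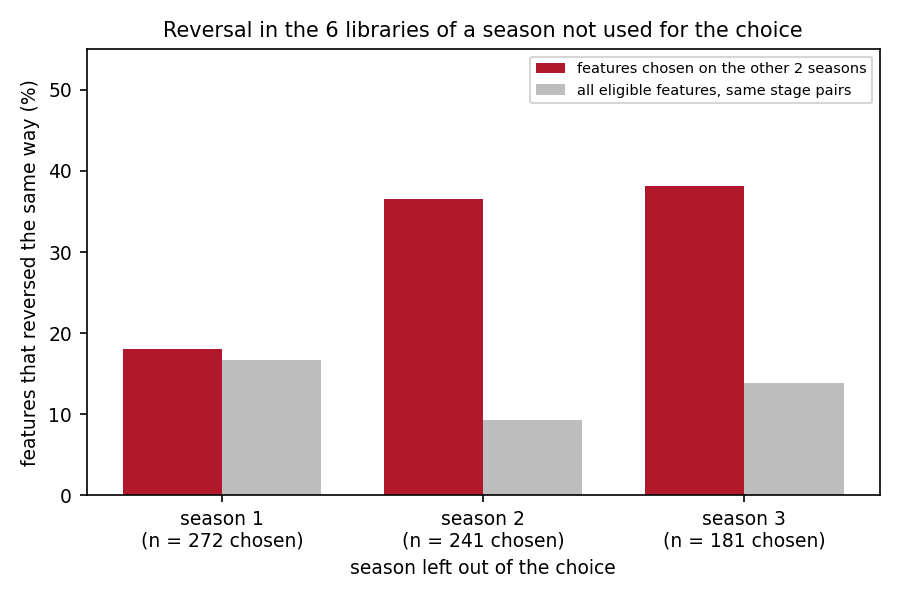
Bars give the percentage of features whose testis-to-ovary ratio had the chosen sign at both stages in the 6 libraries of the season left out, for features chosen on the other seasons (red) and for all eligible features over the same stage pairs (grey). The red bars are 18.01%, 36.5% and 38.1% and the grey bars 16.7%, 9.34% and 13.8%, so the bars are close for season 1 and apart for seasons 2 and 3.

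The testis side held more often than the ovary side. In the season left out, the testis level was above the ovary level at the testis-biased stage in 54.8%, 78.4% and 82.3% of the chosen features for seasons 1, 2 and 3, where 49.5%, 51.2% and 48.1% of eligible features were so. The ovary was above the testis at the ovary-biased stage in 41.9%, 50.2% and 44.2%, against 57.5%, 46.3% and 57.1% of eligible features. The ovary side was thus below the share of eligible features for seasons 1 and 3 and slightly above it for season 2. The higher joint shares of seasons 2 and 3 therefore do not by themselves show that the ovary side recurred. Both sides reached 4-fold in 8, 15 and 12 features. Within the full set of 155, the ratios of single seasons had the chosen signs in all 3 seasons in 54 features, in 2 seasons in 51, in 1 season in 47 and in no season in 3. These same libraries chose the 155, and separated features have the chosen signs in every season by definition. The counts by season are therefore a description and no measure of recurrence.

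The number of features that met the rule ran from 131 to 192 over the 18 libraries left out in turn. Without post-spawning ovary 1 the rule found 132 features, of which 84 were among the 155, 71 of them with the same stages, and 21 of the 40 separated features were kept. Without both this library and spawning testis 3 it found 138, with 73 of the 155. With post-spawning ovaries 2 and 3 averaged as 1 library it found 192, with 146 of the 155. These last settings were chosen after seeing the data.

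**Figure D5:**
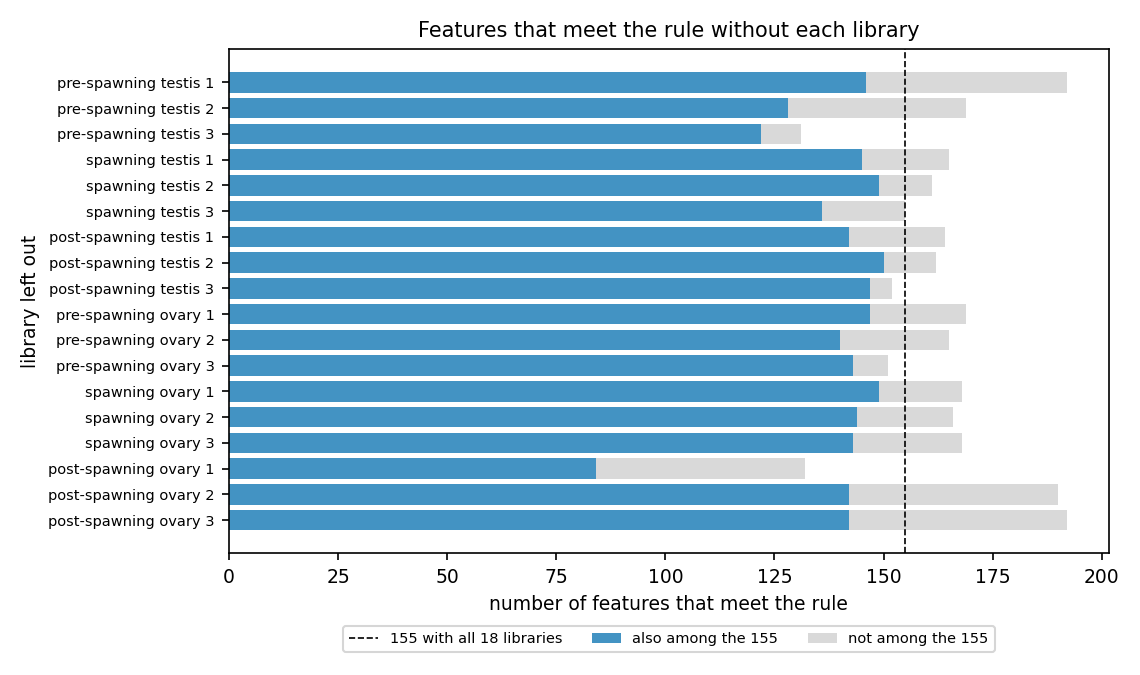
For each library left out, bars give the number of features that met the rule and the number of these that are among the 155. The shared number is lowest, at 84, without post-spawning ovary 1.

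When any single library was left out, 14 of the 155 features were kept every time, and 141 were lost at least once. The 14 were cluster64304, cluster65033, cluster43578, cluster8125, cluster15527, cluster23364, cluster67835, cluster44758, cluster73216, cluster6221, cluster56265, cluster60175, cluster18173 and cluster16386. Of them, 6 were separated. By course, 6 went from pre-spawning testis to post-spawning ovary, 3 from spawning testis to post-spawning ovary, 2 from spawning testis to pre-spawning ovary, 2 from post-spawning testis to pre-spawning ovary and 1 from pre-spawning testis to spawning ovary. The features with the highest levels, cluster4139 and cluster19015, were not among them.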

How the data were processed

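RNA was sequenced in 9 testis and 9 ovary libraries, 3 for each gonad and stage. The authors deposited whole-number counts per feature for 135031 features and a map of 251830 transcripts to features. Fastp and Salmon were used, per the submitters' processing notes, with no versions recorded there, and for the transcriptome, its clustering and any rounding of counts the methods were not given in the sources used here. Reads may be split between features with a common stem. No genome or gene names were used, so gene lists and cell type markers could not be applied and no sequence is shown. The members, the lists and the tests were chosen with earlier results of these data known.

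CPM was computed from the deposited counts and library totals (14604277 to 52676056 counts). The totals set the precision: 3 counts, the limit for a count of 0, covers counting error only. No sample column was left unused. Counts were tested with edgeR 4.0.16 in R 4.3.3 (quasi-likelihood F-test, TMM scaling, filterByExpr, Benjamini-Hochberg adjustment over all features tested, threshold 0.05), on 18 libraries for gonad contrasts and 9 for stage contrasts. DESeq2 1.42.0, another scaling, no low-count filter, a season block and leaving out each library were the alternatives. Python 3.11.15, pandas 2.3.3, SciPy 1.17.1 and matplotlib 3.10.9 did the rest.

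Tested on simulated counts for testis against ovary before spawning (50895 features), the edgeR step recovered 95.9% of 64-fold and 6.12% of 4-fold changes. For post-spawning against pre-spawning it recovered 97.9% and 2.04% in testes (50801 features) and 97.9% and 4.35% in ovaries (47679 features). Each simulation changed 100 features by 4-fold and 100 by 64-fold and used a single spread for all features. Far more features passed in the gonad contrasts of the data, so these shares do not carry over to them.

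The labels give each season number as a batch, which equals the replicate number, so the season pairs libraries across groups. Deviations from group means did not go together by season: same-season pairs of libraries had a median correlation of -0.030 (45 pairs, -0.416 to 0.448) and other pairs -0.004 (90 pairs, -0.582 to 0.457).

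Features were named by a rule: in each course the up to 4 separated features with the largest reversal, the 5 separated features with the highest group mean, the 2 with most transcripts, the 3 resting most on 1 library, and those nearest the ratio threshold on either side. Libraries of a group never agreed within sampling noise (lowest chi-square per degree of freedom 23.6), and all were kept as separate samples. The stem sums counted once, and those without members, were also added after seeing the data.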

Additional observations from a re-analysis of the deposited data

Results flagged for a closer look

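For 2 of the named features, edgeR's quasi-likelihood test found that the stage changes differed between testes and ovaries, adjusted by Benjamini-Hochberg across the whole table. The adjusted p was 0.0417 for cluster33129, which had log2 ratios of testis to ovary of 7.10 before spawning and -6.49 after it. It was 0.0496 for cluster4139, with log2 ratios of 6.57 and -3.86. Both features were chosen for that same contrast, so the p-values are not independent of the choice. With the season as a block 0 members passed this test.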

How the results depend on the processing

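The rule gave 82 features when ratios were paired by season in a replicate block, 245 and 84 with a minimum of 5 and 20 CPM, 62 with 1 CPM added and 55 at 8-fold. Separated features then numbered 23 with 20 CPM, 20 with 1 CPM added and 14 at 8-fold, and 17 with medians of 3 libraries, where 38 of 115 chosen features were among the 155. The other scalings gave 137 (TMM) and 136 (DESeq2 size factors), each with 120 of the 155. Leaving out 1 library or 1 season gave 131 to 272 features, 36 to 158 of them separated. The match in the left-out season, 29.7% pooled, was 28.4% with 1 CPM added and 30.6% and 25.5% with a minimum of 5 and 20 CPM; for season 1 alone it was 18.01%, 12.2%, 22.4% and 10.5% in the same order.

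With the season as a replicate block, edgeR called 44 members after spawning, 0 for the difference between gonads in stage changes, 0 for spawning against pre-spawning testes and 30 in opposite directions. Over all features it then called 21332, 10, 0 and 135 in the same order, of 53536 or, for the testes, 51080 tested. The block moved no other member count by over 1.5 times. Without a low-count filter edgeR called 138, 106 and 137 members for testis against ovary before, at and after spawning, 155 for the difference between gonads in stage changes and 154 in opposite directions. Of all 132790 features it then called 21319, 22956 and 21417, 4778 for that difference and 660 (0.497%) in opposite directions. For the stage pairs (spawning against pre-spawning, post-spawning against spawning, post-spawning against pre-spawning) it then called 97, 82 and 110 members in testes and 57, 66 and 92 in ovaries. Over all features these were 8584, 3815 and 9485 of 126519 in testes and 1389, 1761 and 2159 of 100952 in ovaries. DESeq2 called 82 members for the difference between gonads, 58 and 54 for the first pairs of testes, and 2, 24 and 19 in ovaries. Over all features it called 2598 of 50866, then 9744 and 2698 of 50250, and in ovaries 89, 440 and 434. The cause of these moves was not tested.

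Leaving out each library in turn gave 40 to 85, 25 to 63 and 26 to 79 calls for testis against ovary by stage, 0 to 25 for the difference between gonads and 24 to 55 opposite calls. In the order above, it gave 0 to 61, 0 to 8 and 0 to 86 in testes and 0 to 0, 0 to 2 and 0 to 1 in ovaries. Calls over all features moved too: 16304 to 25034, 18518 to 26780 and 16196 to 25544 for testis against ovary by stage. They were 8 to 249 for the difference between gonads and 94 to 345 for opposite calls. For the stage pairs they were 0 to 7909, 0 to 177 and 2 to 9495 in testes. In ovaries they were 0 to 0, 0 to 41 and 0 to 25. Of 1056 alternative values of 48 named log2 fold changes, 3 changed sign when a library was left out: cluster71188 before spawning to -2.87 without pre-spawning testis 3 (range -2.87 to 11.25), cluster1045 after spawning to 2.58 without post-spawning ovary 1 (-2.89 to 2.58) and cluster70282 at spawning to -5.13 without spawning testis 3 (-5.13 to 12.18). Many of the 1056 values left out a library of neither compared group, which could hardly change a sign. Most named features were also picked as separated, so leaving out a library could not swap the order of their CPM means. The features that changed sign were not separated. The few sign changes are therefore no measure of stability. Among the values, 64 were no longer called where the main fit was, and 41 were called where it was not.

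In simulated counts with 100 features changed at each size, the edgeR step recovered at most 6.12% of 4-fold changes. In the gonad contrasts of the data 41.5% to 45.4% of all features passed, which makes the adjusted threshold easier to reach. The simulated share therefore cannot tell how many 4-fold changes were detected in those contrasts. The part of level and depth in the simulated share was not tested.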
